A study of Sus scrofa with 4 samples.

Results

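The genes described here are those of DNA repair: 53 genes of damage signalling, break repair, base and nucleotide excision repair, mismatch repair and interstrand crosslink repair, listed by symbol. Of these, 49 had a row under their symbol in the deposited gene counts, out of 35670 genes listed, and XRCC4, OGG1, ERCC5 and ERCC6 were not analysed here. They were compared in 4 RNA libraries of porcine fetal fibroblasts (labelled PFFs, tissue skin), all from cells treated by serum starvation. The 2 libraries labelled BRG1 have the genotype BRG1-overexpressed, and the 2 controls have the genotype WT. BRG1, the product of SMARCA4, is an ATPase that drives nucleosome remodelling by BAF complexes, and the study's design asks what more of it does in donor cells for cloning. The name pTK-642 stands in all 4 titles without explanation, so that a vector in the controls is neither stated nor excluded, and the labels do not say whether the libraries of a group came from separate cultures, so that each p-value reflects the spread among these libraries alone, which may be technical.

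Cells repair DNA by routes that match the lesion. Breaks through both strands are sensed by the MRE11-RAD50-NBN complex and the kinases ATM, ATR and DNA-PK, and are then joined end to end or copied from the sister chromatid by homologous recombination. A damaged base is cut out by a glycosylase and an endonuclease, a bulky lesion is removed within a short oligonucleotide by nucleotide excision repair, and replication errors are found by mismatch repair. Recombination and mismatch repair act mostly in replicating cells, whereas end joining also serves cells at rest, the state that serum starvation is used to reach in donor cells.

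Counts over genes summed to between 34486400 and 38126860 reads per library. SMARCA4 itself did not check the label: it had 159 and 163 CPM (reads scaled to library size, with TMM factors) in the BRG1 libraries, against 154 and 179 CPM in the controls, a log2 fold change of -0.04 ± 0.11 (SE; adjusted p = 0.765). That value was -0.15 without control 1 (adjusted p = 0.0251), 0.048 without control 2 and 0.18 with scaling by library size alone. Directions below are therefore those of the libraries labelled BRG1. To check the fibroblast label, marker levels were summed: 9 fibroblast markers, led by COL1A1, summed to 35934 and 35990 CPM in the BRG1 libraries and to 25578 and 28746 CPM in the controls, whereas 5 epithelial markers summed to under 1 CPM in every library, with KRT5 and KRT8 at 0, and the blood markers PTPRC and HBB were at 0. Endothelial markers summed to 7.01 and 7.77 CPM in the BRG1 libraries and to 4.91 and 4.39 CPM in the controls, and 4 blood markers to 2.45 and 2.94 CPM in the BRG1 libraries and to 1.29 and 2.40 CPM in the controls. Those of melanocytes, skeletal muscle and fat summed to at most 1.02 CPM each. Of all reads listed, 10.3% and 10.5% were assigned to no counted feature in the BRG1 libraries, against 6.11% and 7.34% in the controls. Whether these reads lay within introns or between genes is not given, and their part in the results was not tested.

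Most repair genes showed no difference that passed the test, and those that did moved in both directions. All 49 passed the filter on low counts, and 14 passed an adjusted p of 0.05: 10 were higher and 4 lower in the BRG1 libraries. That is 28.6% of the repair genes, against 44.6% of all 14617 genes tested (21.0% higher and 23.6% lower). The median log2 fold change was 0.09 over the repair genes and 0.02 over all genes tested, and the median size of change without regard to sign was 0.27 over the repair genes and 0.44 over all genes tested. In 30 of the 49 (61.2%) the groups did not overlap, against 73.2% of all genes tested. The changes of MSH3 and BRCA2 were the 2 of the 14 that reached 2-fold, against 2184 of the 6512 over all genes.

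Scaling and single libraries moved these counts. They also moved the values over all genes, whose split into higher and lower under each setting is not given here. The counts below are therefore no trait of the repair genes. With scaling by library size alone, which shifted the median of all genes to 0.24, 19 repair genes were higher and 2 lower. Without BRG1 library 1 the counts were 6 higher and 2 lower, and without BRG1 library 2 they were 5 and 2. Without control 1 they were 12 and 5, and without control 2 they were 13 and 6. With a control left out the spread came from the BRG1 pair, which differed less than the controls did (chi-square per degree of freedom 5.40 between the BRG1 libraries and 39.8 between the controls), so that calls gained in those fits are no sign of stability. Of the 35 genes that did not pass, 27 had a 95% interval that lay within a 2-fold change either way. The other 8 were FANCL, NEIL1, CHEK1, CHEK2, BARD1, RAD54L, EXO1 and XRCC2, for which a 2-fold change could not be told from none with these libraries.

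**Figure D1:**
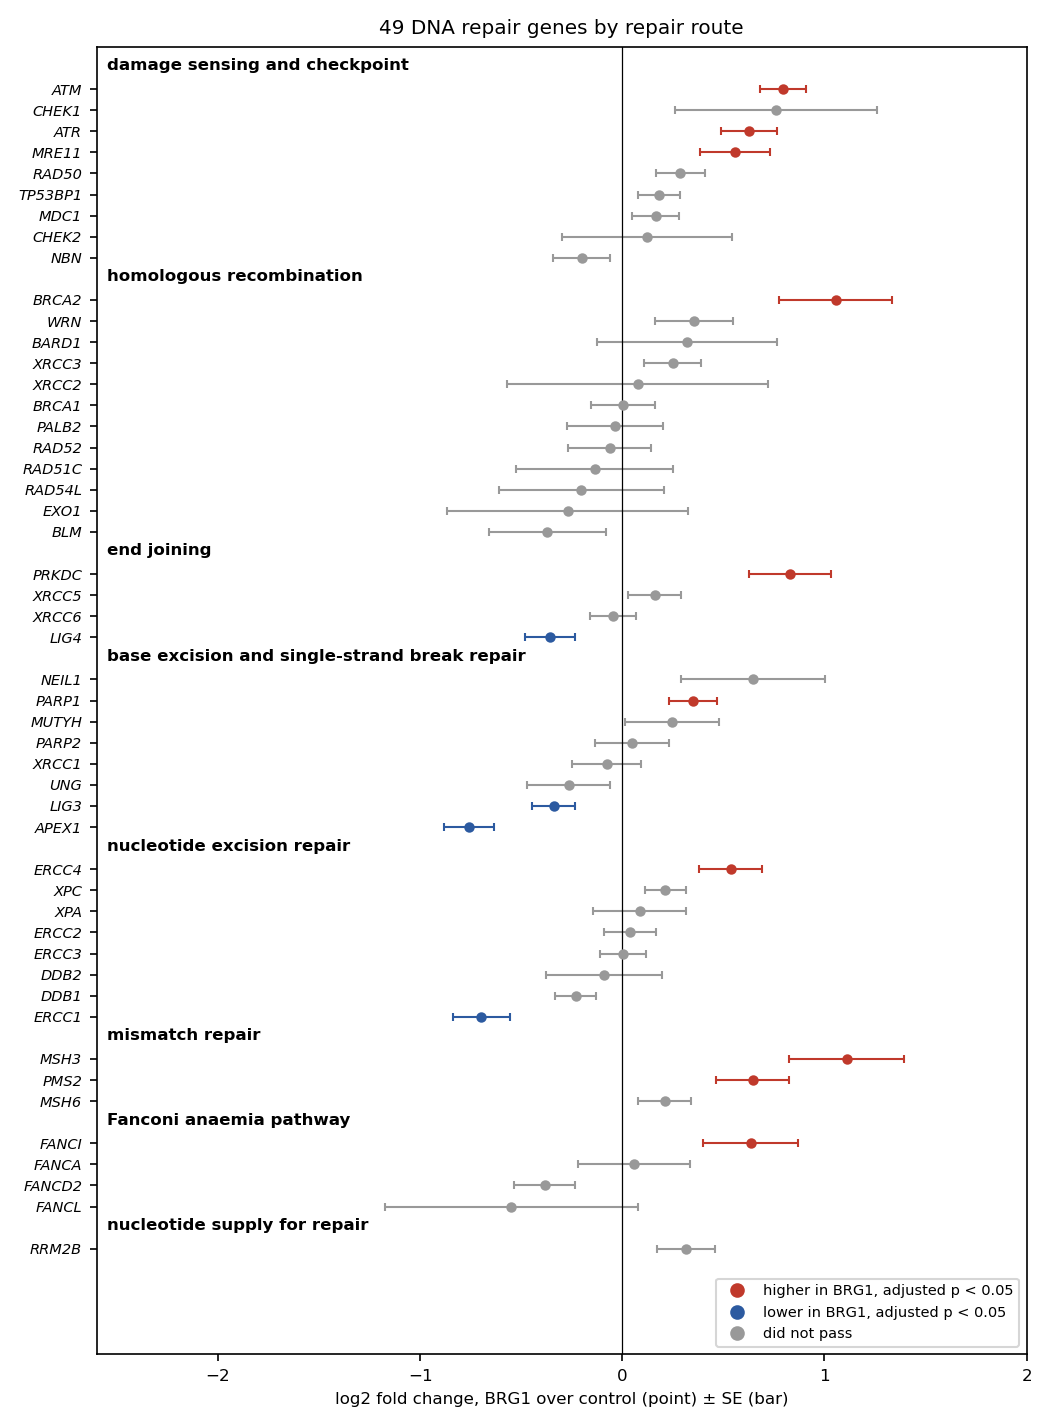
Log2 fold change, BRG1 over control (x axis, point, with its SE as a bar), of the 49 repair genes grouped by repair route, in red where higher and in blue where lower at an adjusted p under 0.05. The 3 kinases ATM, ATR and PRKDC lie between 0.63 and 0.83, and 11 of 12 homologous recombination genes are grey.

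The apical damage kinases were higher in the BRG1 libraries. ATM, the kinase that responds to breaks through both strands (ENSSSCG00000025606; chromosome 9, 36620656 to 36759555, Sscrofa11.1), had 55.0 and 56.6 CPM in the BRG1 libraries, against 30.1 and 34.2 CPM in the controls. The groups lay well apart, and its rise of 1.74-fold (log2 fold change 0.80 ± 0.11, adjusted p = 5.0e-05) had the smallest adjusted p of the repair genes. ATR, the kinase that responds to single-stranded DNA at stalled forks (ENSSSCG00000011679; chromosome 13, 83175515 to 83289986), had 37.0 and 34.6 CPM in the BRG1 libraries, against 20.2 and 26.2 CPM in the controls. Its log2 fold change was 0.63 ± 0.14 (adjusted p = 0.00208), and 0.44 without control 1, the lower of the controls.

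PRKDC, the catalytic subunit of DNA-PK (ENSSSCG00000006274; chromosome 4, 79687375 to 79850146), belongs to the same kinase family and acts in end joining. It had 35.2 and 38.2 CPM in the BRG1 libraries, against 14.5 and 26.8 CPM in the controls. The BRG1 libraries were close to each other, whereas the controls lay far apart. The log2 fold change of 0.83 ± 0.20 (adjusted p = 0.00383) was 0.45 without control 1 and 1.32 without control 2, and it did not pass in DESeq2 (adjusted p = 0.118).

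Of the sensor complex, the nuclease MRE11 (ENSSSCG00000014955; chromosome 9, 26572352 to 26634596) had 11.8 CPM in both BRG1 libraries, against 7.23 and 8.81 CPM in the controls. It was higher by 0.56 ± 0.17 on the log2 scale (adjusted p = 0.0167), but not without BRG1 library 1, BRG1 library 2 or control 1 (adjusted p = 0.0776, 0.0829 and 0.0608). RAD50, its ATPase partner, had 56.1 and 47.2 CPM in the BRG1 libraries, against 45.2 and 39.5 CPM in the controls, so that the lower BRG1 library came close to the higher control. Its log2 fold change of 0.29 ± 0.12 missed the threshold (adjusted p = 0.0686) and passed without control 1 (0.38, adjusted p = 0.000484). The third subunit, NBN, had 24.0 and 19.4 CPM in the BRG1 libraries, against 25.7 and 24.3 CPM in the controls (-0.20 ± 0.14, adjusted p = 0.27). The values of the complex thus ranged on both sides of 0, and the differences between subunits were not tested.

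The checkpoint kinases CHEK1 and CHEK2, which pass the signal on to the cell cycle, were represented by few reads. CHEK1 had 64 and 66 reads in the BRG1 libraries, against 49 and 19 reads in the controls, with a log2 fold change of 0.76 ± 0.50 (adjusted p = 0.231). It passed without control 1, where the estimate was 1.51 (adjusted p = 0.0369). CHEK2 had 67 and 63 reads in the BRG1 libraries, against 44 and 60 reads in the controls (0.12 ± 0.42, adjusted p = 0.843). The chromatin adaptors that gather at breaks, TP53BP1 and MDC1, had many more reads and small differences, 0.18 ± 0.10 and 0.16 ± 0.12 on the log2 scale (adjusted p = 0.172 and 0.274). In these damage signalling genes, 3 of 9 were higher and 0 lower (33.3% passed, against 44.6% of all genes tested), and the median was 0.29.

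Of 12 homologous recombination genes, 1 was higher in the BRG1 libraries and 0 lower (8.33% passed, against 44.6% of all genes tested). BRCA2, a mediator of strand exchange in recombination (ENSSSCG00000029039; chromosome 11, 8805950 to 8858128), had 4.69 and 5.21 CPM in the BRG1 libraries, against 2.00 and 2.77 CPM in the controls. These levels came from 184 and 195 reads in the BRG1 libraries, against 70 and 89 reads in the controls. It rose by 1.05 ± 0.28 on the log2 scale (adjusted p = 0.00637) and passed under every alternative tried.

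The proteins with which BRCA2 works did not pass. BRCA1, a ubiquitin ligase subunit that directs breaks to recombination, had 13.6 and 11.5 CPM in the BRG1 libraries, against 12.0 and 13.0 CPM in the controls. The groups overlapped, and the log2 fold change was 0.005 ± 0.16 (adjusted p = 0.984, 95% interval -0.33 to 0.34). PALB2, the link between BRCA1 and BRCA2, had 5.23 and 8.01 CPM in the BRG1 libraries, against 5.86 and 7.72 CPM in the controls (-0.04 ± 0.24, adjusted p = 0.917). BARD1, the partner of BRCA1, stood at 0.32 ± 0.44 (adjusted p = 0.594).

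Among the other recombination genes the strand-exchange accessory factors RAD51C, XRCC2 and XRCC3, the annealing factor RAD52 and the motor protein RAD54L lay between -0.20 and 0.25, and the helicases BLM and WRN at -0.37 ± 0.29 and 0.35 ± 0.20. EXO1, an exonuclease that resects break ends, had 29 and 25 reads in the BRG1 libraries, against 30 and 27 reads in the controls. The median log2 fold change of the route was -0.02. The median level of the 12 was 3.49 CPM, against 17.6 CPM over all genes tested, so that their standard errors were wider than most: the median SE was 0.28 for these genes and 0.15 over all genes tested.

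In end joining, the ligase fell where the kinase PRKDC rose, and these were the 2 of 4 genes that passed (50%, against 44.6% of all genes tested). LIG4, which seals the joined ends (ENSSSCG00000009540; chromosome 11, 75537027 to 75547711), had 36.7 and 33.1 CPM in the BRG1 libraries, against 40.9 and 48.5 CPM in the controls. The log2 fold change was -0.36 ± 0.12 (adjusted p = 0.0277). It did not pass without BRG1 library 1 (adjusted p = 0.115) or BRG1 library 2 (adjusted p = 0.305), with scaling by library size alone (-0.13, adjusted p = 0.401) or after removal of the span trend, described below (-0.14, adjusted p = 0.365). The Ku proteins that clasp broken ends did not pass: XRCC6 (Ku70) had 35.7 and 35.1 CPM in the BRG1 libraries, against 36.2 and 36.8 CPM in the controls, and XRCC5 (Ku80) had 25.5 CPM in both BRG1 libraries, against 24.2 and 21.4 CPM in the controls. The 95% interval of XRCC6 ran from -0.29 to 0.20, and that of XRCC5 from -0.12 to 0.44, both on the log2 scale.

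In base excision repair 1 of 8 genes was higher and 2 were lower (37.5% passed, against 44.6% of all genes tested). The fall of APEX1 had the smallest adjusted p of the 4 falls. APEX1, the endonuclease that cuts at sites that have lost their base (ENSSSCG00000040060; chromosome 7, 78451845 to 78454938), had 71.6 and 65.7 CPM in the BRG1 libraries, against 132 and 101 CPM in the controls. Although the controls differed from each other, both stood clearly above the BRG1 libraries, and APEX1 fell by 0.76 ± 0.12 on the log2 scale (adjusted p = 0.00017). It was -0.56 without control 1, -0.96 without control 2 and -0.38 after removal of the span trend, and passed in each. LIG3, the ligase that closes the nick (ENSSSCG00000024770; chromosome 12, 40153105 to 40205077), had 45.6 and 43.7 CPM in the BRG1 libraries, against 55.4 and 57.6 CPM in the controls (-0.34 ± 0.11, adjusted p = 0.0167). The groups were tight and apart, but LIG3 did not pass without BRG1 library 1 or 2 (adjusted p = 0.168 and 0.242) or with scaling by library size alone (-0.11, adjusted p = 0.394).

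PARP1, the sensor of strand breaks that marks them with ADP-ribose chains (ENSSSCG00000023660; chromosome 10, 14203157 to 14241164), went the other way. It had 38.8 and 35.6 CPM in the BRG1 libraries, against 29.8 and 28.5 CPM in the controls (0.35 ± 0.12, adjusted p = 0.0276), and did not pass without BRG1 library 1 or 2 (adjusted p = 0.331 and 0.13) or with no filter on low counts (0.32, adjusted p = 0.0533). Its relative PARP2 stood at 0.05 ± 0.18, and XRCC1, the scaffold that holds LIG3 at the nick, at -0.08 ± 0.17. The glycosylases that remove damaged bases, UNG, MUTYH and NEIL1, did not pass, at -0.27 ± 0.20, 0.25 ± 0.23 and 0.65 ± 0.36. NEIL1 differed widely between replicates, with 4.51 and 2.94 CPM in the BRG1 libraries, against 1.60 and 3.18 CPM in the controls, and reached 1.20 without control 2 (adjusted p = 0.00249).

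In nucleotide excision repair the subunits of one nuclease changed in opposite directions. ERCC1 and ERCC4 (XPF) form the enzyme that cuts the damaged strand on the 5′ side of the lesion. ERCC1 (ENSSSCG00000055289; chromosome 6, 51783537 to 51808898) had 13.6 and 14.9 CPM in the BRG1 libraries, against 23.5 and 22.7 CPM in the controls, a fall by 0.70 ± 0.14 on the log2 scale (adjusted p = 0.000887) that passed under every alternative tried. ERCC4 (ENSSSCG00000007881; chromosome 3, 29266234 to 29306109) had 22.5 and 23.8 CPM in the BRG1 libraries, against 13.7 and 18.2 CPM in the controls, a rise of 0.54 ± 0.16 (adjusted p = 0.0111). The ERCC4 value was 0.34 without control 1, and it did not pass without BRG1 library 2 (adjusted p = 0.0853).

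The lesion sensors and the unwinding helicases of the same route did not pass. DDB1, an adaptor of the CUL4 ubiquitin ligase, had 272 and 293 CPM in the BRG1 libraries, against 324 and 339 CPM in the controls; the groups did not overlap, and the value of -0.23 ± 0.10 (adjusted p = 0.081) did not pass. It passed without control 1 (-0.27) and without control 2 (-0.21), fits whose spread comes from the BRG1 pair. XPC, the lesion sensor, had 76.4 and 74.6 CPM in the BRG1 libraries, against 64.0 and 66.4 CPM in the controls (0.21 ± 0.10, adjusted p = 0.101), and passed without control 2 (0.22, adjusted p = 0.0155). DDB2, which recognises ultraviolet lesions together with DDB1, and XPA, which verifies the damage, stood at -0.09 ± 0.29 and 0.09 ± 0.23. The helicases of the transcription factor TFIIH were the steadiest, with ERCC2 at 0.04 ± 0.13 and ERCC3 at 0.002 ± 0.11.

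All 3 mismatch repair genes had higher estimates, as did 51.4% of all genes tested. Of the 3, 2 passed, against 44.6% of all genes tested. MSH3, which recognises insertion and deletion loops (ENSSSCG00000014126; chromosome 2, 89255647 to 89456102), had 7.47 and 5.29 CPM in the BRG1 libraries, against 2.26 and 3.68 CPM in the controls. Both groups were spread widely, from 293 and 198 reads in the BRG1 libraries and 79 and 118 reads in the controls. The log2 fold change was 1.11 ± 0.28 (adjusted p = 0.00501), 0.79 without control 1, 1.48 without control 2 and 0.84 without BRG1 library 1, where it did not pass (adjusted p = 0.0656). PMS2, an endonuclease subunit that acts after mismatch recognition (ENSSSCG00000007590; chromosome 3, 5118002 to 5145634), had 10.1 and 10.6 CPM in the BRG1 libraries, against 6.91 and 6.29 CPM in the controls (0.64 ± 0.18, adjusted p = 0.00851), and did not pass without BRG1 library 2 (adjusted p = 0.0665). MSH6, which recognises single mispairs, had 23.1 and 23.5 CPM in the BRG1 libraries, against 19.7 and 20.6 CPM in the controls (0.21 ± 0.13, adjusted p = 0.215).

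In the Fanconi anaemia pathway, which handles interstrand crosslinks, the partners of the ID complex stood on opposite sides of 0. FANCI (ENSSSCG00000001837; chromosome 7, 54811024 to 54889992) had 5.74 and 5.58 CPM in the BRG1 libraries, against 3.86 and 3.43 CPM in the controls (0.64 ± 0.23, adjusted p = 0.0387). It did not pass without BRG1 library 1, BRG1 library 2 or control 2 (adjusted p = 0.166, 0.134 and 0.0793), in DESeq2 (adjusted p = 0.07) or after removal of the span trend (adjusted p = 0.104). FANCD2 had 16.9 and 14.1 CPM in the BRG1 libraries, against 21.7 and 18.8 CPM in the controls, and its value of -0.38 ± 0.15 lay just outside the threshold (adjusted p = 0.0504). It passed without control 2 (-0.50, adjusted p = 0.00151), with the replicate number as a block (adjusted p = 0.0308) and after removal of the span trend (adjusted p = 0.0112). FANCL, the ubiquitin ligase of the pathway, had 29 and 19 reads in the BRG1 libraries, against 41 and 21 reads in the controls, and the core member FANCA stood at 0.06 ± 0.28. RRM2B, the ribonucleotide reductase subunit that supplies nucleotides for repair in resting cells, had 27.7 and 22.1 CPM in the BRG1 libraries, against 20.1 and 19.96 CPM in the controls (0.31 ± 0.14, adjusted p = 0.0905); it passed without control 1 (0.31, adjusted p = 0.0469).

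**Figure D2:**
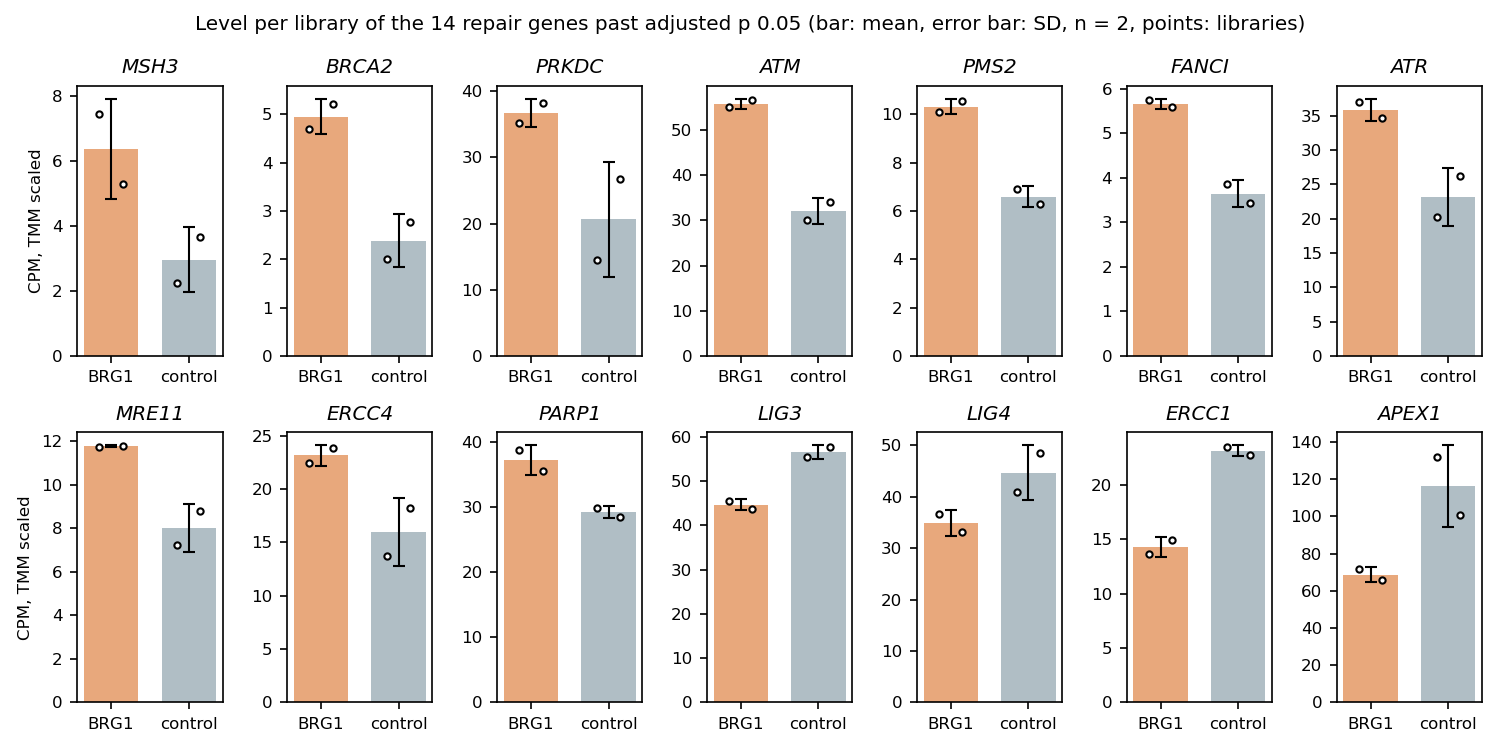
Level in CPM (y axis, from 0) of the 14 repair genes past an adjusted p of 0.05, in BRG1 and in control libraries; bars are means, error bars SD (n = 2) and points single libraries. The groups do not overlap in any of the 14, and the controls of PRKDC, at 14.5 and 26.8 CPM, are the farthest apart for their level.

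Further repair genes, 97 of 99 listed, were examined beside these; 85 belong to the routes above and 12 to translesion synthesis and direct reversal. PAXX was at 0 in every library, and of the 96 tested 15 were higher and 22 lower (38.5%, against 44.6% of all genes tested), with a median of -0.06. With scaling by library size alone, which raised the median of all genes as well, the split was 26 higher and 14 lower. Without BRG1 library 1 it was 7 and 14, and without BRG1 library 2 it was 3 and 14.

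Of 16 further base excision genes 7 were lower and 1 higher, with a median of -0.31, and of 15 further nucleotide excision genes 6 were lower and 3 higher, with a median of 0.05, against 23.6% lower and 21.0% higher of all genes tested. PCNA, the sliding clamp of the repair and replication polymerases, fell to 30.5 ± 0.67 CPM in the BRG1 libraries, against 59.8 ± 9.75 CPM in the controls (SD, n = 2 each; -0.97 ± 0.13, adjusted p = 1.82e-05), and PARP3 to 66.9 ± 9.46 CPM, against 114 ± 4.67 CPM in the controls. XAB2, an XPA-binding protein, fell by 0.78 ± 0.10 on the log2 scale. Of 13 further damage signalling genes 2 were higher and 2 lower, with a median of -0.12. H2AX, the histone that is phosphorylated at breaks, fell by 0.86 ± 0.15 and RAD9A, a subunit of the checkpoint clamp, by 0.61 ± 0.15. RIF1 and TOPBP1 rose by 0.40 ± 0.13 and 0.31 ± 0.12. RAD9A did not pass without BRG1 library 2 (adjusted p = 0.0599) or after removal of the span trend (adjusted p = 0.076).

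Of 4 further mismatch repair genes 1 was higher and 1 lower (50% passed, against 44.6% of all genes tested). MLH3 rose to 10.9 ± 1.75 CPM in the BRG1 libraries, against 5.99 ± 0.51 CPM in the controls (SD, n = 2 each; 0.86 ± 0.19, adjusted p = 0.00196), and passed under every alternative in which it was tested. In recombination RMI2, a member of the BLM dissolution complex, fell by 1.20 ± 0.25 and RAD51D, an accessory factor of strand exchange, rose by 0.54 ± 0.14, though the rise did not pass without BRG1 library 2 (adjusted p = 0.128). Of 6 further end joining genes tested 2 were higher and 1 lower (50% passed, against 44.6% of all genes tested). DCLRE1C (Artemis), the nuclease that opens hairpin ends, rose by 0.55 ± 0.18 and APLF, a scaffold that binds Ku, by 0.39 ± 0.13. Neither passed without BRG1 library 1 or 2, DCLRE1C did not without control 1 (0.29, adjusted p = 0.143), and APLF did not without control 2 (0.25, adjusted p = 0.0571) or after removal of the span trend (0.25, adjusted p = 0.117). FANCE, a core member of the Fanconi pathway, rose by 0.56 ± 0.16 and did not pass without BRG1 library 1 (adjusted p = 0.0595) or BRG1 library 2 (adjusted p = 0.0869).

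Genes of proliferation moved at the same time, and their part in the repair results was not tested. Of 19 such genes tested 1 was higher and 9 were lower, against 21.0% higher and 23.6% lower of all genes tested, with a median of -0.66. MCM10, a replication initiation factor, had 7.39 and 7.77 CPM in the BRG1 libraries, against 20.7 and 21.8 CPM in the controls, whereas TOP2A, a topoisomerase of dividing cells, had 55.3 and 56.0 CPM in the BRG1 libraries, against 26.9 and 26.0 CPM in the controls. The groups did not overlap in either gene, and TOP2A and MCM10 moved in opposite directions. CCNB1, a mitotic cyclin, stood at -0.03 ± 0.21 (adjusted p = 0.931).

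Over all tested genes with a span, the direction of change varied with the length of genome that they span. The values of the repair genes leaned the same way, but a trend among these few genes was not tested. The 10 repair genes that rose spanned a median of 70.6 kb, the shortest being PMS2 at 27.6 kb. The 4 that fell spanned a median of 18.0 kb, the longest being LIG3 at 52.0 kb, and the 35 that did not pass a median of 35.9 kb. Over all tested genes with a span, the medians were 56.8 kb for those that rose, 16.1 kb for those that fell and 29.9 kb for those that did not pass. Across the 49 genes, which share the same 4 libraries, the Spearman correlation of log2 fold change with span was 0.25, and across the 11318 tested genes with a span it was 0.29. In all tested genes the median log2 fold change ran from -0.35 in the decile of shortest genes to 0.29 in the decile of longest genes. After removal of each library's lowess trend with span, 10 repair genes were higher and 4 lower, of which 12 were among the 14 above: FANCI and LIG4 were lost, and FANCD2 (-0.50) and XRCC3 (0.41) passed. The share of all genes that passed in that fit is not given here. In that fit ATM was at 0.57 (adjusted p = 0.000369), ATR at 0.43 (adjusted p = 0.0116) and PRKDC at 0.59 (adjusted p = 0.0133).

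**Figure D3:**
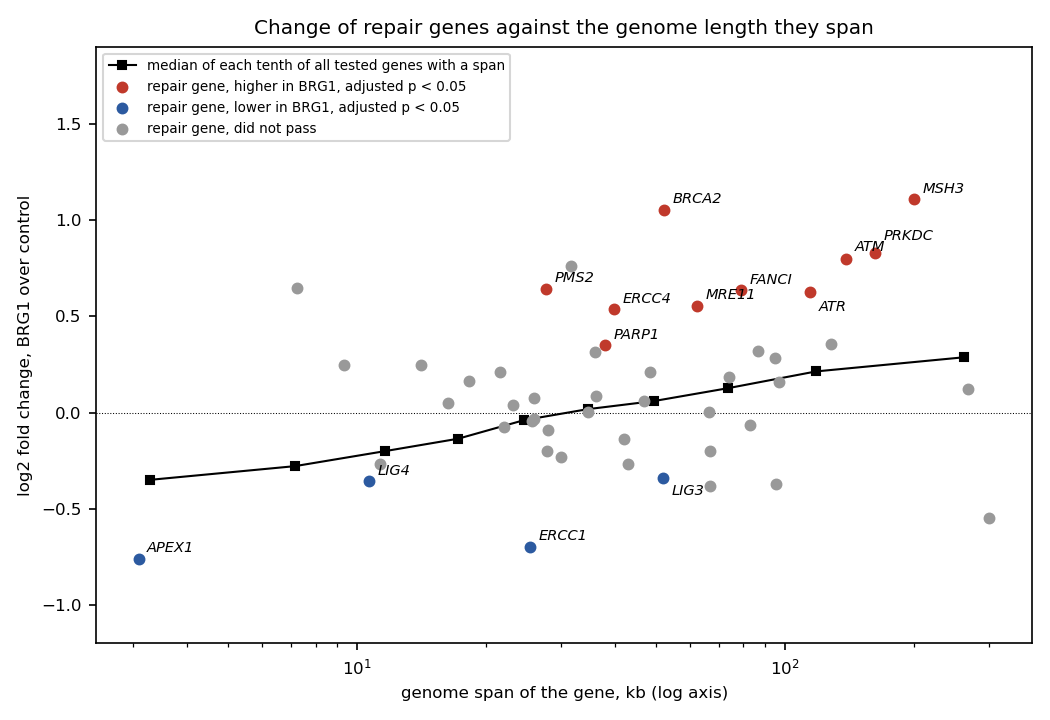
Log2 fold change, BRG1 over control (y axis), of the 49 repair genes against the genome length each spans (x axis, kb, log scale), in red where higher, in blue where lower and in grey where the test was not passed; black squares are medians of deciles of all tested genes with a span. MSH3, PRKDC, ATM and ATR, which span over 100 kb, lie above the black line, FANCL and CHEK2, which span more than these, lie below it, and so does APEX1, which spans 3.09 kb.

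Shared sequence limits some of these values, since nothing used here states whether reads were counted by strand. The spans of 22 of the repair genes counted overlap another RefSeq gene. Among the 14 that passed, APEX1 overlaps OSGEP over 272 bases, FANCI overlaps POLG over 843 bases, ERCC1 overlaps CD3EAP over 160 bases, and MSH3 and ERCC4 overlap pseudogenes over 2384 and 1432 bases. Reads from these stretches could not be assigned to one gene with certainty.

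**Figure D4:**
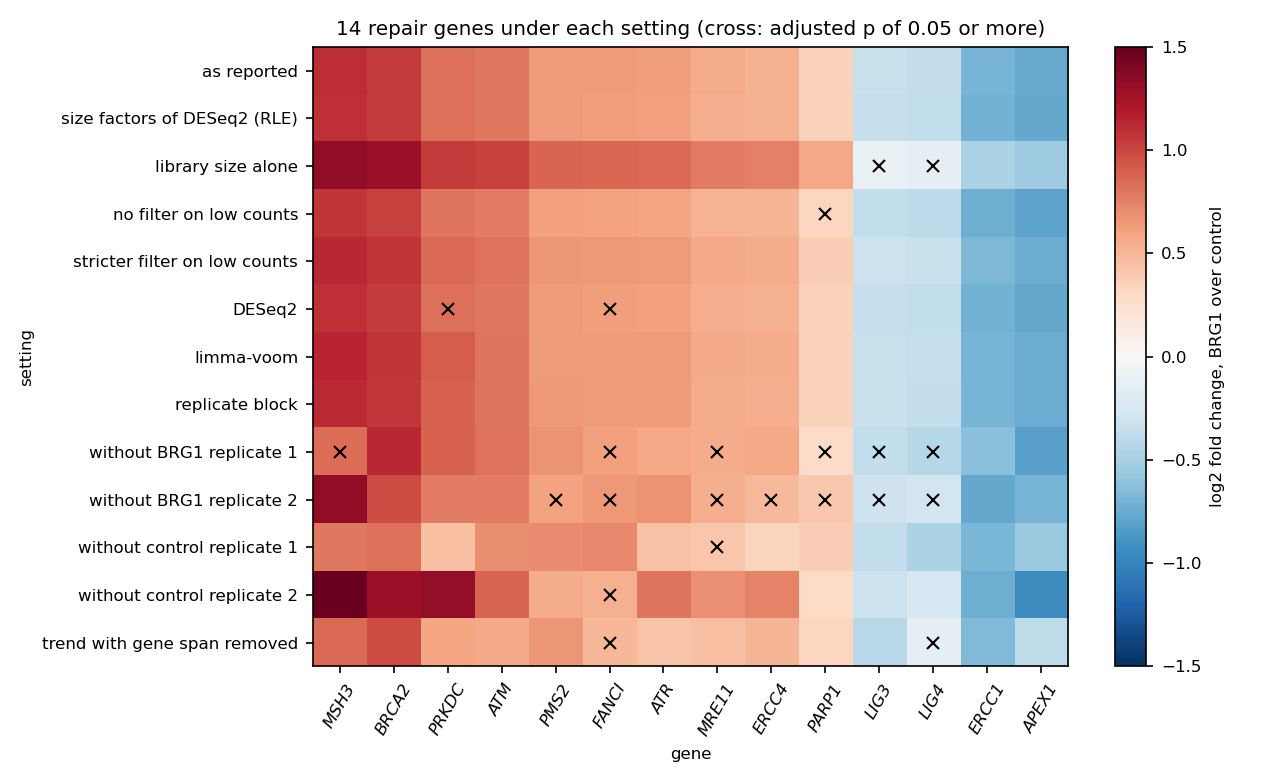
Log2 fold change, BRG1 over control (colour), of the 14 repair genes (columns) under the reported fit and each alternative (rows), with a cross where the adjusted p was 0.05 or more. No gene changes sign, which leaving out a library could hardly bring about, since the groups do not overlap in any of the 14. ATM, ATR, BRCA2, ERCC1 and APEX1 have no cross, and most crosses lie where a BRG1 library was left out.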

How the data were processed

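Titles gave the group and number of each of the 4 RNA libraries. The deposited files are raw read counts by Ensembl gene, unscaled, with a separate file for each library. The submitters' processing notes name the build Sscrofa11.1 and the tools STAR, SAMtools, FastQC, Cufflinks, edgeR and DESeq2, but the program that counted reads, its strand setting and its annotation are not given in the sources used here. RNA came from a trizol extraction, per the labels' protocols.

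Entries without a gene entered neither library sizes nor tests. With edgeR 4.0.16 in R 4.3.3, filterByExpr kept genes (minimum count 10, minimum total 15), which were scaled by TMM (factors 1.08 and 1.08 for the BRG1 libraries, 0.918 and 0.931 for the controls) and tested with the two-sided quasi-likelihood F test. Benjamini-Hochberg adjustment ran over 14617 genes, with a threshold of 0.05. Fold changes carry a prior count of 0.125, and the SE was taken from the unshrunk coefficient and its F value. Gene spans and coordinates, matched by symbol in RefSeq (Sscrofa11.1), cover 49 repair genes and 11318 of the genes tested. In a simulation over 14617 genes, the test found 68 of 100 genes set to change by 2-fold and 86 of 100 set to change by 4-fold, and it made 12 false calls. The simulation changed no other genes, raised as many as it lowered, and gave both groups the same spread. In the data 44.6% of genes passed and the controls differed more than the BRG1 libraries. These simulated counts may therefore not hold for the comparison itself. Replicates differed by more than counting noise (chi-square per degree of freedom 5.40 between BRG1 libraries and 39.8 between controls). Deviations of same-numbered libraries correlated at -0.04, so that no effect shared by replicate number was seen. With 2 libraries per group this cannot show that the libraries were unpaired.

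The genes, the lists and the alternatives were chosen with earlier results of these data known. Values per library are given for repair genes past the threshold with at least 1 CPM and the 2 nearest outside it, and up to 2 further genes per route with the smallest adjusted p are named; other genes named were chosen after their values were seen. Alternatives used DESeq2 1.42.0, limma 3.58.1, other scalings and filters, a threshold of 0.01, the replicate number as a block, each library left out, and each library's lowess trend with gene span removed. Values of some repair genes are not reported here.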

Additional observations from a re-analysis of the deposited data

How the results depend on the processing

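Of the 14 repair genes that passed, all kept their direction under the 13 alternatives. For several of these the direction was all but fixed beforehand. The groups did not overlap in any of the 14, so that leaving out a library could hardly reverse them, and the threshold of 0.01 reuses the same fit. With an adjusted p of 0.01 in place of 0.05, 8 repair genes (6 higher and 2 lower) and 20 further repair genes passed. These counts are not set against the share of all genes at that threshold and are no trait of repair genes. Under scaling to library size alone, the repair genes' median moved to 0.31, beside 0.24 for all genes, and SMARCA4 changed sign to 0.18. Leaving out each library in turn gave 7 to 19 repair genes, 17 to 41 further repair genes, 4085 to 7994 genes in all and SMARCA4 values from -0.152 to 0.048; the lowest counts came without a BRG1 library, where the fit rests on 3 libraries and the lone BRG1 library is assumed to vary like the controls. Without a control the lone control is assumed to vary like the BRG1 pair, which differed less, and the highest of these counts came there.

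Replicate numbers are shared by the groups but are not shown to pair the libraries. With the replicate number as a block 16 repair genes passed (11 higher and 5 lower), including all 14, with RAD50 and FANCD2 added, and 6694 genes passed in all. Over 41 named genes other than SMARCA4, 463 of 530 values kept their call, 46 lost it, 21 gained it and 0 changed sign. H2AX, MLH3 and FANCE have no RefSeq span and could not be fitted with the span trend removed. The 8 repair genes that did not pass and whose interval reached beyond 2-fold had at most 177 reads in any library. RAD51C, which did not pass either, had at most 104 reads and an interval within 2-fold. Among the genes that passed, the intervals of ATM and APEX1, which had many more reads, also reached beyond 2-fold. Depth and the spread between replicates were not separated.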

Other observations

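Translesion polymerases and direct reversal enzymes, which let cells tolerate or undo damage without excision, held the largest rise among the further repair genes. REV3L, the catalytic subunit of polymerase zeta, had 159 and 142 CPM in the BRG1 libraries, against 46.0 and 60.5 CPM in the controls, from 6228 and 5315 reads in the BRG1 libraries and 1610 and 1941 reads in the controls. Its log2 fold change was 1.499 ± 0.13 (edgeR quasi-likelihood test, adjusted p = 2.86e-07), and it lay between 1.23 and 1.72 under the alternatives. MAD2L2, its small accessory subunit, fell by 0.62 ± 0.15 (adjusted p = 0.00321) and did not pass without BRG1 library 1 (-0.51) or after removal of the span trend (-0.32). HLTF, a ubiquitin ligase that modifies PCNA at stalled forks, fell to 75.0 ± 6.29 CPM in the BRG1 libraries, against 119 ± 4.77 CPM in the controls (SD, n = 2 each; -0.66 ± 0.10), whereas SHPRH, its relative, rose by 0.54 ± 0.15 (adjusted p = 0.00731) and did not pass without BRG1 library 2. Of 12 genes in this group 3 were higher and 3 lower (50% passed, against 44.6% of all genes tested), and the median was 0.09. MAD2L2 and SHPRH were chosen after their values were seen.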
